A study of Mus musculus with 12 samples.

Results

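The genes described are Trp63, which encodes the transcription factor p63, and 7 genes whose proteins anchor epithelial cells to the basement membrane: the integrin genes Itgb4, Itga6 and Itga3, the transmembrane collagen gene Col17a1, the laminin chain genes Lama3 and Lamb3, and the plakin gene Dst. These 8 were chosen by name from 48795 Ensembl gene identifiers in the deposited count table, and all 8 passed the filter on low counts, among 15270 genes tested. They were measured in 12 libraries of cells labelled as luminal prostate cells, from wild type C57BL/6 mice, 6-8 weeks old. Cells lacking CD31, CD45 and Ter119 were sorted by LY6D, a small surface protein, as LY6D+ or LY6D-, and by SCA1, the product of Ly6a, as SCA1low, SCA1int or SCA1high. Each of the 6 resulting populations had 2 libraries, made with the Lexogen QuantSeq 3′ FWD kit from 10-20 ng of total RNA. The labels name no sort against basal cells and do not say whether animals were pooled.

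p63 is the transcription factor that defines the basal layer of the prostate and of stratified epithelia, and the classical luminal cells of the gland lack it. A hemidesmosome joins the keratin filaments of a cell to the basement membrane: the integrin α6β4 and collagen XVII span the membrane, plectin and the plakin encoded by Dst hold the keratins inside, and laminin-332, which holds the chains encoded by Lama3 and Lamb3, is the ligand outside. Integrin α3, which pairs with β1, binds the same laminin but sits outside hemidesmosomes, and several genes of these structures are known targets of p63 in mouse and human keratinocytes.

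Total counts ran from 8436185 to 20022077 per library. A count is a tag near the 3′ end of a polyadenylated RNA, so levels are given as CPM (count shares of a library at a common scale, with TMM factors, edgeR's trimmed mean of M-values) and were not divided by transcript length. Replicates of 1 population correlated at 0.66 to 0.71 across genes, and the best match in another population was 0.65 to 0.73. Most libraries correlated better with that match than with their own replicate. The exceptions were LY6D- SCA1high replicate 2 (0.707 with its replicate, 0.672 with the match) and LY6D- SCA1low replicate 1 (0.676 and 0.653). Krt8 and Krt18, keratins of luminal cells, were present in every library, at 66.4 to 276 CPM and 108 to 502 CPM. The labels do not say that the 2 libraries of a population came from separate animals, so the p-values describe the scatter of these libraries only.

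On GRCm38 with GENCODE M21, Trp63 lies on chromosome 16 from 25683763 to 25892102 on the plus strand. Its coding transcripts start at 25683763, at 25683765 or, from the internal promoter that gives ΔNp63, at 25801916. Both classes share some 3′ ends and the counts are summed per gene, so the counts do not tell them apart. Itgb4 lies on chromosome 11 from 115974709 to 116008412 (plus), Itga6 on chromosome 2 from 71745616 to 71858416 (plus) and Itga3 on chromosome 11 from 95044474 to 95076801 (minus). Col17a1 lies on chromosome 19 from 47646344 to 47692094 (minus) and Lamb3 on chromosome 1 from 193207699 to 193343878 (plus). Dst lies on chromosome 1 from 33908225 to 34308661 (plus), and its 14 coding transcripts have 13 different ends, so its count sums short epithelial and long neuronal or muscle forms. The strand setting of the counting is not given in the sources used here, so reads of genes on the opposite strand cannot be told apart from those of Dst and Lamb3. Over all libraries Gm26788, opposite to Dst, had 10.5% of the counts of Dst, and Hsd11b1 and G0s2, opposite to Lamb3, had 9.75% and 11.2% of those of Lamb3.

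RefSeq promoters were at hand for 4 of the 8 genes, as 7 windows of the 250 bases before a start site. One window each of Col17a1 (chr19:47692043-47692292, minus strand), Lamb3 (chr1:193301744-193301993, plus strand) and Dst (chr1:34160010-34160259, plus strand) is printed 5′ to 3′ on GRCm38.p6, because the levels of these genes moved with that of Trp63 across the libraries. Capitals mark the TATA box letters TATAAA.
Col17a1: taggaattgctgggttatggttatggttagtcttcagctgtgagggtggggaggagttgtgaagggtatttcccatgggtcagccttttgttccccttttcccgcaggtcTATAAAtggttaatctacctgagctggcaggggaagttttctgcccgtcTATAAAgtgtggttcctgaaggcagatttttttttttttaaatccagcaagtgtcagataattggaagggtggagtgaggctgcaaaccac
Lamb3: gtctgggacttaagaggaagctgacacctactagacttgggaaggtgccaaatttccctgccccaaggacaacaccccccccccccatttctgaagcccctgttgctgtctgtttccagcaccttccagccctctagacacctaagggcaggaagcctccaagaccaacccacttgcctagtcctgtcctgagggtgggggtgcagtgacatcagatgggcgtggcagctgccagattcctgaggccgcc
Dst: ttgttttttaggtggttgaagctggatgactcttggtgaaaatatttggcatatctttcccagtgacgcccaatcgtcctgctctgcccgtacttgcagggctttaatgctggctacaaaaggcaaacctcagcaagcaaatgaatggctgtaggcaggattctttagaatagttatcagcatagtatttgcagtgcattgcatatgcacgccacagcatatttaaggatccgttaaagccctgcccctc
The window of Col17a1 held TATAAA on the plus strand of the printed sequence at -140 and -91 from the RefSeq start. None of the other 6 windows held it. The start of Col17a1 in GENCODE M21, at 47692094 on the minus strand, lies inside this window, so distances from it are smaller. The pair of p63 half-sites, CATG and CATG with any 6 bases between them, and the AP-1 motif TGANTCA, searched on both strands, had 0 matches in the 7 windows, and no motif overlapped another. Among 32851 promoter windows of the same length, 12.4% held TATAAA, 0.49% the p63 pair and 6.75% the AP-1 motif. These are matches of letters only, and p63 is known to bind mostly at enhancers outside such windows.

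All 8 genes had a higher fitted level in LY6D+ than in LY6D- cells averaged over the SCA1 levels, and 3 of them, Trp63, Itga6 and Dst, passed the test. Trp63 rose by a log2 fold change of 4.12 ± 0.93 (SE), Itga6 by 1.23 ± 0.32 and Dst by 1.68 ± 0.30, each with n = 6 libraries against 6. Of all genes tested, 2.48% were called in this comparison and 1.27% were called higher. At an unadjusted p below 0.05 there were 5 of the 8 genes and 3116 of all 15270 genes. The median log2 fold change was 2.34 over the 8 genes and 0.03 over all genes tested. A gene is called at an adjusted p below 0.05 in edgeR's quasi-likelihood test over all 15270 genes. In bulk samples, fewer cells of a type and less RNA per cell cannot be told apart.

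**Figure D1:**
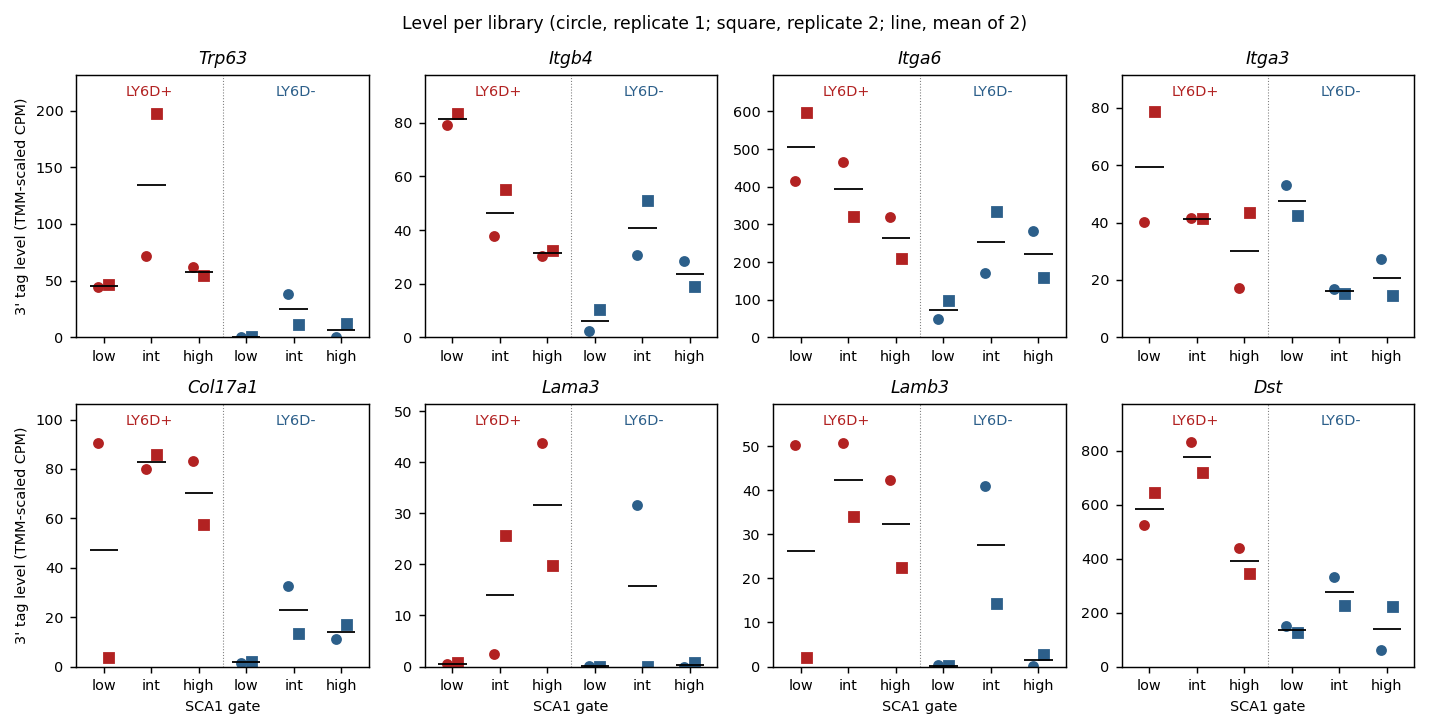
Level of each of the 8 genes (TMM-scaled CPM, linear axis from 0) in LY6D+ (red) and LY6D- (blue) libraries at SCA1low, SCA1int and SCA1high; circles are replicate 1, squares replicate 2, and lines the mean of 2. For Trp63 and Dst all 6 LY6D+ libraries lie above all 6 LY6D- libraries; LY6D- SCA1low is the lowest population for 7 of the 8 genes, Itga3 being the exception.

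Markers of basal cells moved with this comparison. The summed level of 9 basal markers was 1643 to 4161 CPM in LY6D+ libraries and 37.4 to 1545 CPM in LY6D- libraries, and the groups did not overlap. Within LY6D- cells the sum was 37.4 and 142 CPM at SCA1low, 1385 and 1545 CPM at SCA1int and 370 and 353 CPM at SCA1high. Of the 9 markers, 5 rose with LY6D and none fell in edgeR, where 1.27% of all genes were called higher and 1.21% lower. By fitted fold, 7 were positive and 2 negative. DESeq2 called 7 higher and 1 lower, where it called 6.5% of its genes higher and 9.59% lower. The keratin genes Krt5, Krt14 and Krt15 were detected in every library. Sncg went against the markers that rose, at 0 to 0.53 CPM in LY6D+ libraries and 0 to 19.9 CPM in LY6D- libraries. Correlated over the 12 libraries on a log2 scale, the basal sum had r = 0.87 with Trp63, 0.84 with Itgb4, 0.83 with Itga6, 0.81 with Lamb3, 0.79 with Col17a1, 0.74 with Dst and 0.59 with Lama3, against -0.09 with Itga3. These are descriptions over libraries that share their sort, and the part of basal cells in the results was not tested.

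**Figure D2:**
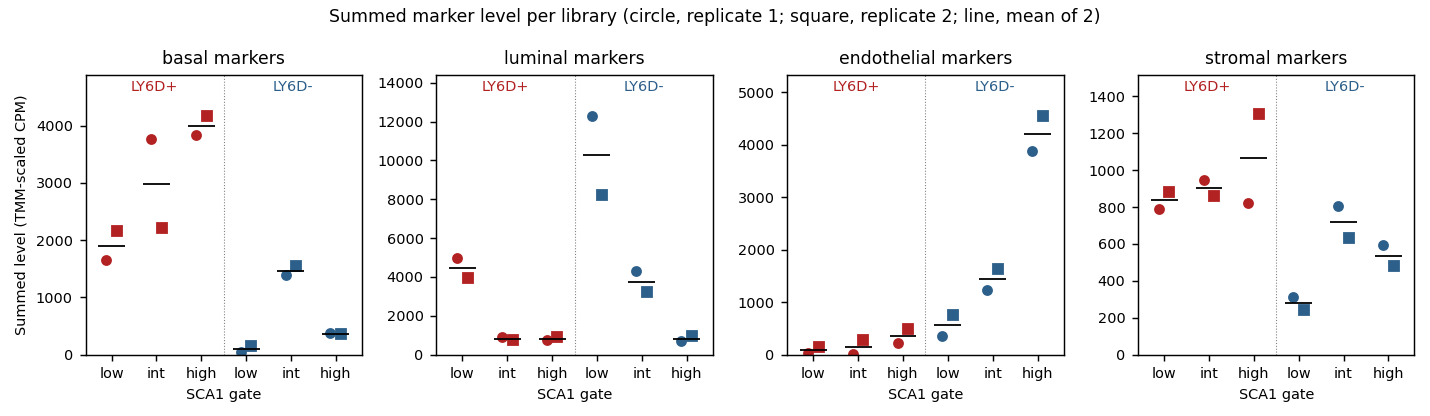
Summed level (TMM-scaled CPM, linear axes from 0) of basal, luminal, endothelial and stromal marker lists in the same 12 libraries; circles are replicate 1, squares replicate 2, and lines the mean of 2. Basal sums are 1643 to 4161 CPM in LY6D+ and 37.4 to 1545 CPM in LY6D- libraries, and endothelial sums reach 3884 and 4543 CPM in LY6D- SCA1high.

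Endothelial markers moved the other way: 9 of 12 fell in edgeR, where 1.21% of all genes were called lower and 1.27% higher. Their sum was 18.2 to 488 CPM in LY6D+ libraries and 354 to 4543 CPM in LY6D- libraries. The 2 highest values, 3884 and 4543 CPM, were in LY6D- SCA1high. Of 8 luminal markers, only Pbsn, a secreted protein of luminal cells, was called, and it fell (log2 fold change -2.18 ± 0.16). The luminal sum was 737 to 4988 CPM in LY6D+ libraries and 687 to 12303 CPM in LY6D- libraries. Of 10 stromal markers tested, 1 (Dcn, a matrix proteoglycan) rose, by 1.48 ± 0.22, and Dcn held most of a sum of 790 to 1303 CPM in LY6D+ libraries, against 244 to 803 CPM in LY6D- libraries. The leukocyte sum stayed at 7.78 to 90.5 CPM in LY6D+ and 6.74 to 50.4 CPM in LY6D- libraries, with Ptprc at 0.22 CPM or less. The Schwann cell sum was 38.6 to 112 CPM in LY6D+ libraries and 0.31 to 45.9 CPM in LY6D- libraries, with Sox10 at 0 throughout. Of the 5 leukocyte and 2 Schwann markers tested, edgeR called 0 in either list. At an unadjusted p below 0.05 there were 2 and 0, against 3116 of all 15270 genes. DESeq2 called 2 and 0 and limma 0 and 0. Over the 12 libraries the stromal sum had r = 0.82 with Trp63, 0.76 with Itgb4 and Col17a1, 0.75 with Lamb3, 0.74 with Itga6, 0.67 with Dst, 0.60 with Lama3 and 0.02 with Itga3. The Schwann sum had r = 0.71 with Dst and 0.69 with Trp63, and 0.39 to 0.57 with the other 6 genes. The endothelial sum had r = -0.74 with Dst and -0.56 to -0.11 with the other 7. These too are descriptions, and the part of these other cells was not tested.

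For Trp63 both LY6D+ libraries lay above both LY6D- libraries at every SCA1 level. It was called at no single level (adjusted p = 0.129 at SCA1low, 0.665 at SCA1int and 0.419 at SCA1high in edgeR). LY6D+ cells had 44.3 and 46.2 CPM at SCA1low, 72.2 and 197 CPM at SCA1int, and 62.2 and 54.0 CPM at SCA1high. LY6D- cells had 0.43 and 0.43 CPM at SCA1low, 38.6 and 11 CPM at SCA1int, and 0.08 and 12.2 CPM at SCA1high. Every LY6D+ library lay above every LY6D- library, which held for 0.812% of all genes tested. The low values rest on few tags, namely 4 and 5 counts in LY6D- SCA1low and 1 count in LY6D- SCA1high replicate 1. In order of their means the populations were LY6D+ SCA1int (135 ± 88.3 CPM, SD, n = 2), LY6D+ SCA1high (58.1 ± 5.8), LY6D+ SCA1low (45.3 ± 1.31), LY6D- SCA1int (24.8 ± 19.5), LY6D- SCA1high (6.12 ± 8.54) and LY6D- SCA1low (0.43). The ranges of the LY6D- populations next to each other in that order overlapped, and those of the other neighbours did not. The averaged fold had an adjusted p of 0.0128 in edgeR. It was called in 19 of 20 alternatives and lost when SCA1high was left out of the average (4.56 ± 1.17, adjusted p = 0.0633 in edgeR). Without LY6D- SCA1high replicate 2 it was 6.17 ± 1.31.

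The 2 subunits of the laminin receptor α6β4 had similar profiles. Itga6 had 415 and 596 CPM in LY6D+ cells at SCA1low, 467 and 319 CPM at SCA1int, and 319 and 209 CPM at SCA1high. In LY6D- cells it had 48.7 and 96.4 CPM at SCA1low, 171 and 334 CPM at SCA1int, and 283 and 158 CPM at SCA1high. The groups were far apart at SCA1low and overlapped at the other levels, and 3 of the 6 LY6D+ libraries lay above all LY6D- libraries. Itgb4 had 79.4 and 83.5 CPM in LY6D+ cells at SCA1low, 37.7 and 54.8 CPM at SCA1int, and 30.5 and 32.3 CPM at SCA1high. It had 2.26 and 10.0 CPM in LY6D- cells at SCA1low, 30.7 and 51.0 CPM at SCA1int, and 28.5 and 18.9 CPM at SCA1high. As for Itga6, LY6D- SCA1low was the lowest population, without overlap with the next, and LY6D+ SCA1low had the highest mean. Both genes correlated at r = 0.94 over the 12 libraries. The protein of Itga6, CD49f, is a surface marker often used to sort prostate cells, and the labels do not name it as a gate.

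The averaged fold of Itga6 had an adjusted p of 0.0306 in edgeR, and that of Itgb4 was 1.44 ± 0.78 with an adjusted p of 0.31. The call of Itga6 was kept in 11 of 20 alternatives. It was lost with RLE size factors (1.10, adjusted p = 0.0654 in edgeR), with library size as the only scaling (1.16, 0.0509), in DESeq2 (1.10, 0.0686) and in limma (1.29, 0.0547). It was also lost when 1 library was left out, for LY6D+ SCA1high replicate 1 (1.13, adjusted p = 0.0561 in edgeR), LY6D+ SCA1int replicate 1 (1.14, 0.0527), LY6D+ SCA1low replicate 2 (1.14, 0.0689), LY6D- SCA1high replicate 2 (1.08, 0.105) or LY6D- SCA1int replicate 1 (1.11, 0.115).

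Itga3, the integrin chain outside hemidesmosomes, followed neither. It had 40.1 and 78.6 CPM in LY6D+ cells at SCA1low, 41.6 and 41.2 CPM at SCA1int, and 17.1 and 43.3 CPM at SCA1high. In LY6D- cells it had 53 and 42.3 CPM at SCA1low, 16.7 and 15.3 CPM at SCA1int, and 27.2 and 14.4 CPM at SCA1high. The ranges overlapped at SCA1low and SCA1high and did not at SCA1int, and LY6D- SCA1low, the lowest population for the other genes, had the second highest mean of Itga3. Its averaged fold was 0.74 ± 0.79 (adjusted p = 0.675 in edgeR). Its correlation with the other 7 genes ran from -0.28 to 0.24.

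Col17a1, the collagen that spans the hemidesmosome, had 90.5 and 3.66 CPM in LY6D+ cells at SCA1low, 79.8 and 85.8 CPM at SCA1int, and 83.0 and 57.4 CPM at SCA1high. In LY6D- cells it had 1.51 and 1.82 CPM at SCA1low, 32.7 and 13.2 CPM at SCA1int, and 11.1 and 16.8 CPM at SCA1high. Of the 6 LY6D+ libraries 5 lay above all LY6D- libraries, and the exception was LY6D+ SCA1low replicate 2, which was 24.8-fold below its own replicate. Lamb3, the β3 chain of laminin-332, had 50.3 and 1.94 CPM in LY6D+ cells at SCA1low, 50.7 and 33.9 CPM at SCA1int, and 42.4 and 22.3 CPM at SCA1high. It had 0.32 and 0.09 CPM in LY6D- cells at SCA1low, 40.9 and 14.2 CPM at SCA1int, and 0.16 and 2.63 CPM at SCA1high. The same library, LY6D+ SCA1low replicate 2, was 25.9-fold below its replicate for Lamb3. For 5 of the other 6 genes the same 2 libraries differed by at most 1.44-fold, Itga3 being the exception with 40.1 and 78.6 CPM. Lama3, among those 5, had only 6 and 8 counts in these libraries. Col17a1 and Lamb3 correlated at r = 0.91 over the 12 libraries.

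Neither gene passed the test averaged over the SCA1 levels. The fold was 3 ± 0.87 for Col17a1 (adjusted p = 0.0609 in edgeR) and 4.03 ± 1.24 for Lamb3 (adjusted p = 0.0751). Without LY6D+ SCA1low replicate 2 both were called, at 3.31 ± 0.90 for Col17a1 (adjusted p = 0.0201 in edgeR) and 4.32 ± 1.28 for Lamb3 (adjusted p = 0.0440). DESeq2 called both with all libraries, where it called 6.5% of the genes it tested higher.

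Lama3, the α3 chain, lies on chromosome 18 from 12333819 to 12583013 on the plus strand and differed between replicates in most populations. LY6D+ cells had 0.46 and 0.62 CPM at SCA1low, 2.43 and 25.6 CPM at SCA1int, and 43.7 and 19.6 CPM at SCA1high. LY6D- cells had 0.11 and 0 CPM at SCA1low, 31.7 and 0 CPM at SCA1int, and 0 and 0.72 CPM at SCA1high. Its 3 zeros allow levels of up to 0.26 CPM at SCA1low, 0.257 CPM at SCA1int and 0.235 CPM at SCA1high (3 counts, counting error only). LY6D- SCA1int replicate 1 held nearly all of its LY6D- tags and lay above 5 of the 6 LY6D+ libraries. The averaged fold was 3.14 ± 1.66 (adjusted p = 0.293 in edgeR).

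Dst, the plakin that ties keratins to α6β4, had the smallest p of the 8 genes. It had 526 and 643 CPM in LY6D+ cells at SCA1low, 831 and 719 CPM at SCA1int, and 439 and 344 CPM at SCA1high. It had 150 and 124 CPM in LY6D- cells at SCA1low, 331 and 225 CPM at SCA1int, and 60.9 and 221 CPM at SCA1high. The lowest LY6D+ library, at 344 CPM, lay just above the highest LY6D- library, at 331 CPM. The populations ran from LY6D+ SCA1int (775 ± 79.3 CPM, SD, n = 2) through LY6D+ SCA1low (584 ± 82.6), LY6D+ SCA1high (392 ± 67.8) and LY6D- SCA1int (278 ± 75) to LY6D- SCA1high (141 ± 113) and LY6D- SCA1low (137 ± 17.9), and only the last 2 neighbours overlapped. The averaged fold of 1.68 had an adjusted p of 0.00106 in edgeR and stayed called in all 20 alternatives, between 1.45 and 2.06.

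**Figure D3:**
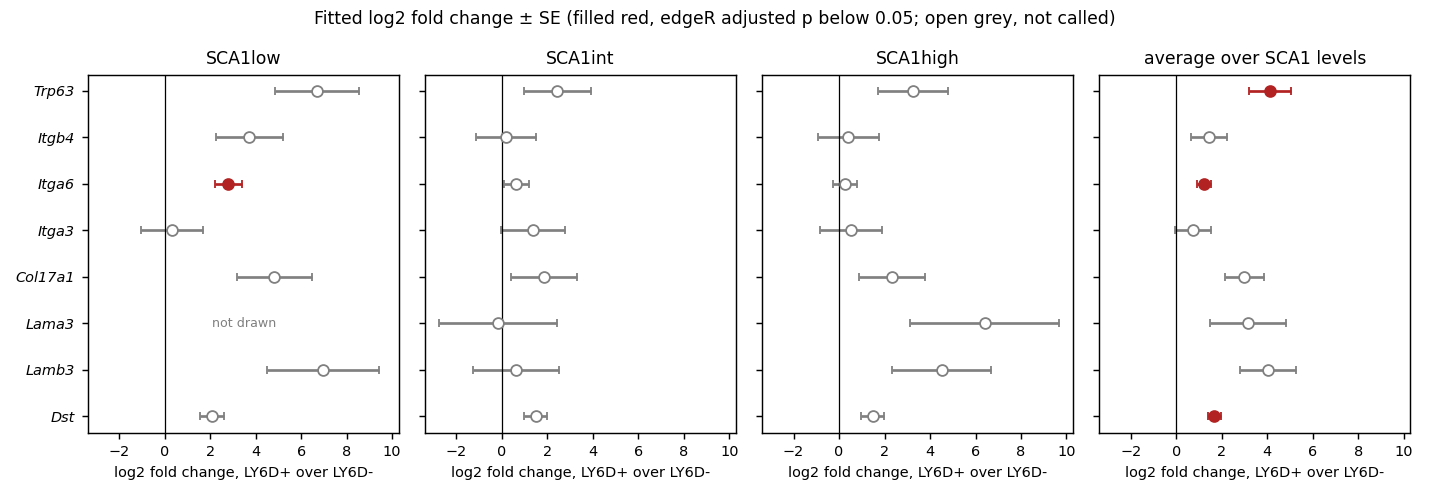
Fitted log2 fold change of LY6D+ over LY6D- (points) with its SE (bars) for the 8 genes at SCA1low, SCA1int and SCA1high and averaged over the levels; filled red points are called by edgeR, open grey ones are not. Itga6 is called at SCA1low (2.80 ± 0.58), and Trp63, Itga6 and Dst in the average; Lama3 is not drawn at SCA1low, where the LY6D- libraries held 1 count of it.

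Set against each other at a single SCA1 level, the LY6D states gave 1 call among the 8 genes, at SCA1low. There Itga6 rose by 2.80 ± 0.58 (adjusted p = 0.0130 in edgeR, n = 2 against 2), the only called gene of the 8, where 0.472% of all genes were called and 0.38% called higher. The folds of the others at SCA1low were 6.69 ± 1.84 for Trp63, 3.72 ± 1.48 for Itgb4, 4.82 ± 1.64 for Col17a1, 6.96 ± 2.48 for Lamb3, 2.09 ± 0.52 for Dst and 0.32 ± 1.37 for Itga3. The LY6D+ libraries lay above the LY6D- libraries for 7 of the 8 genes, Itga3 being the exception, which held for 22.8% of all genes. For Lama3, with 6 and 8 counts against 1 and 0, no fold is given. Itga6 lost its call without LY6D- SCA1low replicate 1 (2.16 ± 0.69, adjusted p = 0.226 in edgeR) and with RLE size factors (2.40 ± 0.57, 0.0578). Without LY6D- SCA1low replicate 2 its fold was 3.35 ± 0.76. Dst missed the call (adjusted p = 0.0727 in edgeR) and was called when any 1 of the 8 SCA1int or SCA1high libraries was left out. Trp63 (adjusted p = 0.129) was called without LY6D+ SCA1high replicate 2, LY6D+ SCA1int replicate 1, or either LY6D- SCA1high library. Those libraries are in neither of the compared populations. Each fit without 1 of them redid the filter on low counts, the scaling, the shared estimate of the spread and the adjustment. DESeq2 called 5 of the 8 genes at SCA1low, where it called 6.89% of its genes higher.

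At SCA1int and SCA1high edgeR called 0 of the 8 genes, where 0.203% and 0.262% of all genes were called. At an unadjusted p below 0.05 there were 1 (Dst) at SCA1int and 3 (Trp63, Lamb3 and Dst) at SCA1high. Over all 15270 genes there were 942 and 1790. DESeq2 called 0 at SCA1int and 1 at SCA1high (Lamb3), where it called 2.39% of its genes higher, and limma 0 at both. The median fold of the 8 genes was 1 at SCA1int and 1.9 at SCA1high, against 0.0034 and -0.11 over all genes tested. At SCA1int the LY6D+ libraries lay above the LY6D- libraries for 4 genes (Trp63, Itga3, Col17a1 and Dst), which held for 19.4% of all genes. At SCA1high they did for 6, all but Itga6 and Itga3, against 15.3% of all genes. Trp63, Col17a1 and Dst did so at every SCA1 level, for which the share of all genes was not computed.

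The test of whether the LY6D fold differed between SCA1 levels called 0 of the 8 genes. For SCA1high minus SCA1low, where 0.0393% of all genes were called, the smallest p was that of Itga6, with a difference in log2 fold of -2.54 ± 0.78 (adjusted p = 0.65 in edgeR). For SCA1int minus the mean of the other levels, where 0.0458% were called, it was that of Lamb3, at -5.12 ± 2.5 (adjusted p = 0.569). At an unadjusted p below 0.05 the counts were 1 and 0, against 1160 and 1331 of all 15270 genes. DESeq2 and limma called 0 of the 8 in both. The keratin genes Krt14 and Krt5 were called in the second of these, at -4.15 ± 0.71 and -4.10 ± 0.79. The larger fold of Itga6 at SCA1low is therefore not shown to differ from that at the other levels.

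Between SCA1high and SCA1low, edgeR called 0 of the 8 genes. Against SCA1low, SCA1high cells averaged over the LY6D states had a higher fitted level of 6 of the 8 genes and a lower one of Itga3 (-1.09 ± 0.98) and Dst (-0.27 ± 0.36). None was called by edgeR, where 1.21% of all genes were, and the median fold was 0.93 over the 8 genes and 0.15 over all. Within LY6D+ cells Itgb4 had 81.4 ± 2.91 CPM at SCA1low, 46.2 ± 12.1 at SCA1int and 31.4 ± 1.31 at SCA1high (SD, n = 2), and its fold at SCA1high over SCA1low was -1.37 ± 1.35 (adjusted p = 0.723 in edgeR). Within LY6D- cells Itga6 had 220 ± 88.6 CPM at SCA1high and 72.5 ± 33.7 CPM at SCA1low, a fold of 1.60 ± 0.55 (adjusted p = 0.353 in edgeR). Called genes were 0 of 8 within LY6D+ cells and 0 of 8 within LY6D- cells, where 0.327% and 0.635% of all genes were called. At an unadjusted p below 0.05 there were 0 in the average, 0 within LY6D+ and 2 within LY6D-. Over all 15270 genes there were 1843, 1314 and 1015. DESeq2 and limma called 0 of the 8 in all of these comparisons.

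Among LY6D- cells, SCA1int had the highest mean of every gene of the 8 except Itga3. Set against the mean of SCA1high and SCA1low within LY6D-, SCA1int had a fold of 3.91 ± 1.23 for Trp63, 5.66 ± 1.73 for Lamb3, 6.73 ± 2.49 for Lama3, 1 ± 0.45 for Itga6 and 1 ± 0.42 for Dst. These 5 had an unadjusted p below 0.05, as did 1685 of all 15270 genes. After adjustment edgeR called 0 of the 8, the smallest adjusted p being 0.332, where 0.118% of all genes were called. DESeq2 called 2 (Lama3 and Lamb3), where it called 3.76% of its genes higher, and limma 0. Lama3 rests on LY6D- SCA1int replicate 1, and without it the fold was -4.15 ± 4.49. Without LY6D- SCA1high replicate 2, edgeR called Trp63 (6.92 ± 1.76, adjusted p = 0.0486). The basal marker sum was also highest at SCA1int within LY6D-, at 1385 and 1545 CPM, and its part was not tested. Within LY6D+ cells the same contrast called 0 of the 8 genes in edgeR, DESeq2 and limma, where edgeR called 0.0196% of all genes. At an unadjusted p below 0.05 there were 0 of the 8, against 966 of all 15270 genes. The smallest p among the 8 was that of Dst, with a fold of 0.70 ± 0.42.

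Other parts of the anchoring complex gave a mixed picture between LY6D+ and LY6D- cells. The median fold of 17 hemidesmosome and laminin partners was 0.40, against 0.03 over all genes tested. Of the 17, 3 rose and none fell in edgeR, where 1.27% of all genes were called higher and 1.21% lower. These were Col7a1, the anchoring fibril collagen that binds laminin-332 from below (5.09 ± 0.81, adjusted p = 0.000247 in edgeR), and the basal keratin genes Krt5 (3.76 ± 0.39) and Krt14 (3.68 ± 0.35). Col7a1 had 89.1 and 51.6 CPM in LY6D+ SCA1low, 132 and 154 in LY6D+ SCA1int and 69.8 and 91.4 in LY6D+ SCA1high. It had 0.86 and 0.35 CPM in LY6D- SCA1low, 15.2 and 28.5 in LY6D- SCA1int and 0.31 and 2.75 in LY6D- SCA1high, so its groups did not overlap. Plec, which encodes plectin, had a fold of 1.39 ± 0.43 and missed the call (adjusted p = 0.0797 in edgeR).

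Among 16 genes known to depend on p63 in epithelia, 14 were tested, with a median fold of 2.71, against 0.03 over all genes. Of the 14, 5 rose and 1 fell in edgeR, where 1.27% of all genes were called higher and 1.21% lower. Beside Krt14 and Krt5, the placental cadherin gene Cdh3 rose by 3.39 ± 0.80, and Igfbp3, a binding protein of insulin-like growth factors, fell (log2 fold change -3.54 ± 0.62). Igfbp3 had its highest levels, 806 and 616 CPM, in LY6D- SCA1high, where the endothelial marker sum was highest. The other called genes, Fgfr2 (2.46 ± 0.59) and Cldn1 (3.05 ± 0.78), are named after their values were seen. Krt5, Krt14 and Cdh3 also stand in the basal marker list, and Krt5 and Krt14 in the partner list, so these counts share genes. Of 10 desmosome genes, 8 were tested and 1 rose, the plakophilin gene Pkp3 (3.08 ± 0.64), against the same 1.27% of all genes.

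The p53 family members Trp53 and Trp73 gave 0 calls in edgeR, and 1 and 0 in DESeq2 and limma. At an unadjusted p below 0.05 there was 1 of the 2, against 3116 of all 15270 genes. Trp73 had 1 to 512 counts in 5 LY6D+ libraries, and 0 in 1, against 0 to 3 counts in LY6D- libraries (adjusted p = 0.0815 in edgeR). Of 10 integrin genes outside hemidesmosomes, 7 were tested and edgeR called 0, with 1 at an unadjusted p below 0.05, 1 in DESeq2 and 0 in limma. The smallest p was that of Itga5, the fibronectin receptor chain, which had an adjusted p of 0.0797 in edgeR and was lower in LY6D+ cells by its fitted value. Itgb1, the partner of integrin α3, had a fold of 0.47 ± 0.30 (adjusted p = 0.408 in edgeR). Between SCA1high and SCA1low cells averaged over the LY6D states, the partners gave 2 higher genes (Krt14 and Krt5) and the p63-dependent genes 3 (Krt14, Igfbp3 and Krt5), with none lower in either list, where 0.432% of all genes were called higher. In the same comparison 3 of 9 basal and 5 of 12 endothelial markers rose, and their part was not tested.

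**Figure D4:**
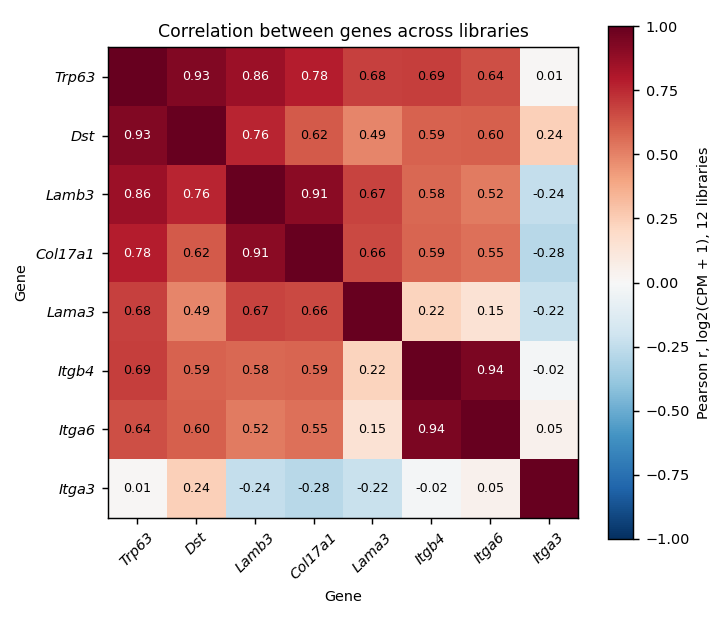
Pearson correlation of log2(CPM + 1) between the 8 genes over the 12 libraries, on a colour scale from -1 (blue) to 1 (red). Trp63 with Dst (0.93) and Itgb4 with Itga6 (0.94) are the highest pairs, and Itga3 lies between -0.28 and 0.24 with all others.

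Over the 12 libraries, Trp63 correlated at 0.93 with Dst, 0.86 with Lamb3 and 0.78 with Col17a1, and at 0.69 with Itgb4 and 0.64 with Itga6. Among 8096 genes whose log2 CPM averaged 3 or more, those most like Trp63 by Pearson's r were Col7a1 and Adgrb1 (0.94), Dst (0.93), Aldh1a7 and Ackr4 (0.92) and Tshz1 (0.91). Those most like Itgb4 were Tiprl and Itga6 (0.94), Adm, Sox4 and Pdgfa (0.93) and Reep5 (0.92). The libraries differ in depth and in the marker sums given above, and the correlations are descriptions over n = 12 libraries.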

How the data were processed

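RNA was measured in 12 libraries, 2 from each of 6 sorted populations. Raw counts per gene were deposited by the authors as whole numbers. The deposited normalised signal equals CPM with TMM factors recomputed from the counts, within a relative 4.98e-15. Per the submitters' processing notes, the authors used build mm10 with STAR 2.5.1, cutadapt 1.9.1, Picard 1.96, SAMtools 1.3.1, featureCounts (Subread) and edgeR. Their order and settings, the annotation and the counting strand are not given in sources used here. No molecular identifiers are named, so copies made by PCR may be counted.

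Genes passing filterByExpr (15270) were fitted in R 4.3.3 with edgeR 4.0.16 (TMM, 1 mean per population, glmQLFit and glmQLFTest, 6 residual degrees of freedom, common dispersion 1.65), with Benjamini-Hochberg adjustment over all genes. SE is the log2 fold change over the root of F. The script was tested on simulated data, with recovery of set folds required only at a dispersion of 0.1. The common dispersion here was 1.65, so that test does not show which folds could be detected in these libraries. Alternatives were RLE factors, library size only, no filter, DESeq2 1.42.0, limma 3.58.1 on log2(CPM + 1), each library left out, a block for the replicate number, LY6D+ SCA1high replicate 2 and LY6D- SCA1low replicate 2 left out together, subsets of libraries, and an average without SCA1high. The descriptions of all replicate 1 libraries begin with one prefix and those of replicate 2 with another, whose meaning the labels do not give. Deviations of equal numbers correlated at -0.197 to 0.132 over 15 pairs of populations, above 0.1 in 2, so the fit had no block. The lowest value was that of LY6D- SCA1high with LY6D- SCA1low. There, LY6D- SCA1high replicate 1 and LY6D- SCA1low replicate 2 each had a best match of 0.729 in another population. With their own replicates they had 0.707 and 0.676. Carry-over between libraries was not modelled here. Symbols matched 48349 of 48795 identifiers.

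The 8 genes and all lists were chosen with earlier results of these data known. The text names the 8 genes, the called genes of each pathway list up to 4 by p-value (otherwise the smallest p), and the 6 genes most like Trp63 and Itgb4. Plec and Itgb1 were added after their values were seen.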

Additional observations from a re-analysis of the deposited data

How the results depend on the processing

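The count of called genes among the 8 in LY6D+ against LY6D- averaged over SCA1 was 3 and lay between 2 and 4 over 20 alternatives. At SCA1low the count of 1 became 0 with RLE size factors, 2 without the filter, 5 in DESeq2, and 0 to 3 with 1 library left out. With the replicate number as a block it was 2 (Itga6, and Dst at an adjusted p of 0.0441 in edgeR), and the block moved no other count among the 8. At SCA1high the count of 0 became 1 in DESeq2. For SCA1int within LY6D- it became 2 in DESeq2 and 0 to 1 with 1 library left out. Over all genes the LY6D count of 379 lay between 122 (average without SCA1high) and 2423 (DESeq2). The median log2 fold of all genes was 0.03 with TMM and -0.09 with RLE in the LY6D average, 0.20 and -0.19 at SCA1low, and 0.15 with TMM and 0.63 with library size alone in SCA1high against SCA1low. Under each of these scalings, 8, 8 and 6 of the 8 genes lay above that median in these comparisons.

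Some single folds, which edgeR did not call with all libraries, changed sign. Lama3 at SCA1int (-0.18) became 0.12 with RLE, 0.0101 with library size alone, 0.11 in DESeq2, 0.79 in limma and 0.0364 with the 4 compared libraries alone, and lay at -2.70 to 10.7 with 1 library left out. In SCA1int within LY6D-, leaving out 1 library gave Lama3 -4.15 to 9.36. Itga3 at SCA1low became -0.12 with RLE, -0.12 in DESeq2 and -0.11 to 0.62 with 1 library left out; at SCA1high it was -0.28 without both libraries named below and -0.53 to 1.05 with 1 left out. Leaving out 1 library gave Itga6 at SCA1high -0.24 to 0.69 and Itgb4 at SCA1int -0.10 to 0.68. In SCA1high against SCA1low, Dst became 0.22 with library size alone, and leaving out 1 library gave Dst -1.01 to 0.0271, Trp63 -1.13 to 2.55, Lamb3 -0.22 to 3.37 and Itgb4 -0.17 to 0.89.

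LY6D- SCA1low had 4 and 5 counts of Trp63, 3 and 1 of Lamb3 and 1 and 0 of Lama3, so depth limits those folds. Leaving out LY6D+ SCA1high replicate 2 and LY6D- SCA1low replicate 2 together gave 3 calls in the LY6D average. The causes of these changes were not tested.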
